A study of Homo sapiens with 6 samples.

Results

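The genes described here are the zinc finger genes at the far end of the long arm of human chromosome 19. They are the genes with a symbol made of ZNF, a number and at most 1 letter whose start lies on chromosome 19 beyond 54 Mb in GRCh38, taken in genomic order. The RefSeq gene table lists 60 such genes. Of these, 56 had a probeset of their own on the array, with 1 probeset per gene, out of 32321 probesets in all and 19158 that carry 1 gene symbol. ZNF547, ZNF587B and ZNF497 were measured only on probesets shared with another gene, and ZNF132 was not analysed here. The rule that picks the 56 genes uses no measured value, but it was set with earlier results of these data known. Of the 56, 55 are protein coding and 1, ZNF542P, is a transcribed pseudogene.

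RNA was measured on 6 Affymetrix arrays. The parental group was 3 arrays of the HEK293 Flp-In line, which the labels call wild-type, and the other group was 3 arrays of HEK293 Flp-In cells that constitutively express TRIM71 with a FLAG-HA tag (the TRIM71 line). HEK293 is an established line of human embryonic kidney origin, and Flp-In cells carry a recombination site that takes up a transgene. Both groups were grown in DMEM with glutamine and fetal calf serum, and hygromycin B at 50 ug/ml is named for the TRIM71-expressing cells only. Effects of the transgene, of hygromycin and of any further difference between both lines cannot be told apart. The labels speak of a triplicate experiment and do not say that the arrays came from separate cultures, so the p-values reflect only how far these arrays vary, a spread that may be technical. Every level below is a log2 expression value (RMA), given as mean ± SD with n = 3 arrays per group. Every fold change is the TRIM71 line over the parental line on the log2 scale, with a Benjamini-Hochberg adjusted p from 1 limma fit over all 32321 probesets. A gene passed at an adjusted p under 0.05.

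C2H2 zinc finger proteins bind DNA through tandem fingers, each a short fold held by a zinc ion between cysteines and histidines. Most of those encoded on chromosome 19 arose by local gene duplication and carry a KRAB domain, which recruits the corepressor TRIM28 (KAP1) and with it the histone methyltransferase SETDB1, and many are known to silence transposable elements. TRIM28 itself is encoded at the end of 19q. TRIM71, expressed in stem and progenitor cells, binds RNA through its NHL domain and lowers the levels of some mRNAs.

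Promoter sequences are shown for 5 of these genes, because the results below turn on a run of neighbours that fell together, on a gene that fell where the nearest ZNF genes on either side did not, and on a gene that rose. ZNF582, ZNF667 and ZNF470 belong to the run, ZNF772 is among the genes that fell outside it, and ZNF805 rose. Each window holds 250 bases before and 50 after the annotated start, from RefSeq (GRCh38.p14), written 5′ to 3′ on the gene's strand, and capitals mark CG dinucleotides.
ZNF582, chr19:56393485-56393784, - strand: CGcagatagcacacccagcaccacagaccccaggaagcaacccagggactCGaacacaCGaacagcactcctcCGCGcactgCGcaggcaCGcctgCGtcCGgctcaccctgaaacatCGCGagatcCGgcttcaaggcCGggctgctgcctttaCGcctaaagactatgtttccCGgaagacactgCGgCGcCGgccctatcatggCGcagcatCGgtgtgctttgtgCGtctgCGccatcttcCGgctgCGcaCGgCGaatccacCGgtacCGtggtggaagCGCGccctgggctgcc
ZNF667, chr19:56477296-56477595, - strand: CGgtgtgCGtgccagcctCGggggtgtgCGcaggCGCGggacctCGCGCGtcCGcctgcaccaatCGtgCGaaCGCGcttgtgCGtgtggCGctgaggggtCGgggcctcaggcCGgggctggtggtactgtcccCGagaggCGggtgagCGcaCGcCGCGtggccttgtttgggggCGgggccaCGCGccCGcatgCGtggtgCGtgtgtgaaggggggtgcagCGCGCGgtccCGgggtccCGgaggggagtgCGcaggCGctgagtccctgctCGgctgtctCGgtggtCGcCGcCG
ZNF470, chr19:56567218-56567517, + strand: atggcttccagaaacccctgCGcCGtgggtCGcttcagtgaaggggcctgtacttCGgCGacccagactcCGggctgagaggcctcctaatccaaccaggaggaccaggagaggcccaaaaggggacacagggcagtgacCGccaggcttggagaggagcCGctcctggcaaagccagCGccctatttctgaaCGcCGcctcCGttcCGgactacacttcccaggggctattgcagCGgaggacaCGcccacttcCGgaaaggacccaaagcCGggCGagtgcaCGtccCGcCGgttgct
ZNF772, chr19:57477517-57477816, - strand: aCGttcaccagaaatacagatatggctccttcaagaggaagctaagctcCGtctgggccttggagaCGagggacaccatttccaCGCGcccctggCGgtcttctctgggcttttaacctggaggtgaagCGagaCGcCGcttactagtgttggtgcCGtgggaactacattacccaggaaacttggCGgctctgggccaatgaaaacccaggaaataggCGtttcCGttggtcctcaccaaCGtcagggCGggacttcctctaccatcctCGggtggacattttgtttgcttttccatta
ZNF805, chr19:57240382-57240681, + strand: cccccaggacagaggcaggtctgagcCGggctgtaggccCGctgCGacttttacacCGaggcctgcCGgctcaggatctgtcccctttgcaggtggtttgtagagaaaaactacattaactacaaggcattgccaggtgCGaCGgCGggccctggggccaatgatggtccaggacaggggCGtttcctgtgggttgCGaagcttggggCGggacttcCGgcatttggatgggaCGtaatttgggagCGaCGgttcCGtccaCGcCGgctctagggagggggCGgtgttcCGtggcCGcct
The CG dinucleotide, the site of DNA methylation in human cells, occurred 30 times in the ZNF582 window, 42 times in that of ZNF667, 21 times in that of ZNF470, 16 times in that of ZNF772 and 21 times in that of ZNF805.

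The TRIM71 mRNA, as a check of the labels, stood at 7.23, 7.54 and 7.44 on the parental arrays and at 10.63, 10.86 and 10.72 on the TRIM71 arrays. Array medians lay between 6.898 and 6.973, and the median of all values was 6.95. Of 9 HEK293 markers with a probeset of their own, 8 had a mean at or above that median. Between the lines 3 of the 9 rose, among them VIM (0.40, adjusted p = 0.0028), and 3 fell, among them NEFL (−1.45, adjusted p = 9.5e-05). Of 17 markers of leukocytes, endothelium, fibroblasts and hepatocytes, 14 had a mean below it, and 0 passed the limma test between the lines. At an unadjusted p under 0.05 there was 1, the fibroblast collagen gene COL1A1, which was lower (−0.19, adjusted p = 0.14).

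Of the 56 zinc finger genes at the 19q end, 12 fell and 4 rose in the TRIM71 line, while 40 did not pass. Among all probesets with 1 gene symbol, 12.1% passed as lower and 9.93% as higher; among all 32321 probesets the shares were 8.28% and 7.95%. The genes at the 19q end came to 21.4% lower and 7.14% higher. With 1 array left out, as few as 1 (without parental replicate 2) or 2 (without parental replicate 3, TRIM71 replicate 1 or TRIM71 replicate 2) rose, and 9 or 10 fell. By at least 1.5-fold, 7 fell, where 2.67% of the 1-symbol probesets did so, and no gene rose by that much, where 1.31% did so. The 3 TRIM71 arrays lay wholly on 1 side of the 3 parental arrays for 31 of the 56 genes, with 23 below and 8 above. Among the 19158 1-symbol probesets the share was 43.2%, with 4443 below and 3831 above. The median log2 fold change was −0.09 over the 56 genes and −0.01 over the 1-symbol probesets. All 56 genes entered the fit, with no filter on low values, and 50 of them had a mean at or above the median of all values. Among the 19158 1-symbol probesets, 11468 did so. The 56 genes were thus more often bright, and the shares above were not matched for level.

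**Figure D1:**
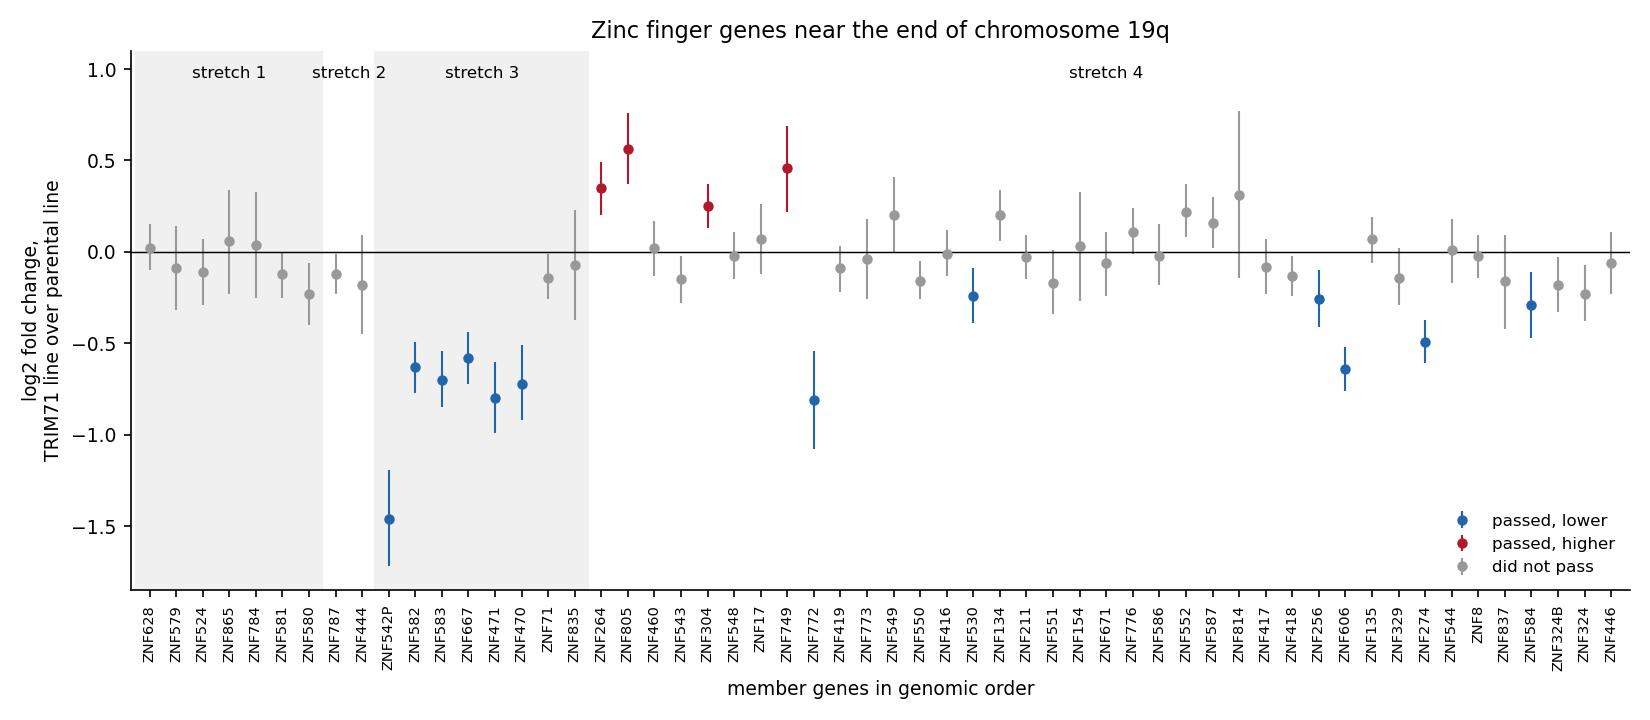
Log2 fold change (TRIM71 line over parental line) with its 95% interval from the limma fit for each of the 56 genes, in genomic order towards the end of 19q; shading separates the 4 stretches, and blue, red and grey mark genes that passed as lower, passed as higher or did not pass. The 6 successive genes from ZNF542P to ZNF470 lie between −1.46 and −0.58, with intervals that do not reach 0.

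In genomic order the genes fell into 4 stretches, a new one starting wherever successive gene starts lay more than 0.2 Mb apart. This spacing was chosen after the values were seen, so the stretches are described without a test. The first, from ZNF628 to ZNF580, held 7 genes, among them ZNF580 and ZNF581, which encode small C2H2 proteins with no KRAB domain. By the limma test 0 of these 7 passed, and 1 had an unadjusted p under 0.05. The second held ZNF787 and ZNF444, a SCAN-domain gene, and neither passed (fold changes −0.12 and −0.18, with 1 unadjusted p under 0.05). In the third, from ZNF542P to ZNF835, 6 of 8 genes fell. The fourth, from ZNF264 to ZNF446, held 39 genes, of which 6 fell (15.4%) and 4 rose (10.3%). The median fold change was −0.09, −0.15, −0.66 and −0.03 in the 4 stretches. Outside the third stretch, 6 of 48 genes fell (12.5%) and 4 rose (8.33%), with a median of −0.05. These shares are near the 12.1% lower and 9.93% higher among all 1-symbol probesets.

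The third stretch opened with 6 successive genes that all fell. ZNF542P, the pseudogene, read 9.07, 8.80 and 8.80 on the parental arrays and 7.50, 7.56 and 7.25 on the TRIM71 arrays. It fell 2.74-fold (log2 fold change −1.46, SE 0.11, adjusted p = 8.0e-04), the largest change among the 56 genes. All TRIM71 arrays lay below all parental arrays, by far more than either group's spread (SD 0.16 and 0.17). ZNF582, whose promoter is known to be methylated in cervical cancer, read 7.26, 7.27 and 7.28 in the parental line against 6.70, 6.68 and 6.54 (−0.63, SE 0.06, adjusted p = 0.0013). Its parental arrays had an SD of 0.01 and its TRIM71 arrays one of 0.08, and the groups did not overlap. ZNF583, a little-studied relative, went from 8.75, 8.61 and 8.54 to 7.93, 7.96 and 7.92 (−0.70, SE 0.06, adjusted p = 0.0014). For ZNF583 it was the TRIM71 arrays that lay close together (SD 0.02).

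ZNF667 read 6.11, 6.15 and 6.05 in the parental line and 5.60, 5.53 and 5.45 in the TRIM71 line (−0.58, SE 0.06, adjusted p = 0.0020). ZNF471, another gene known for promoter methylation in tumours, went from 5.62, 5.41 and 5.42 to 4.58, 4.78 and 4.69 (−0.80, SE 0.08, adjusted p = 0.0021). Both probesets were below the median of all values in both lines, where log2 values understate fold changes, and neither pair of groups overlapped. ZNF470 went from 7.92, 7.81 and 7.91 to 7.12, 7.33 and 7.04 (−0.72, SE 0.09, adjusted p = 0.0034). Each of these 6 genes kept its call with any 1 of the 6 arrays left out.

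The run ended at the next gene. ZNF71 stood at 7.65 ± 0.06 in the parental line and 7.52 ± 0.03 in the TRIM71 line (−0.14, 95% interval −0.26 to −0.01, adjusted p = 0.13), and ZNF835 at 7.26 ± 0.19 and 7.19 ± 0.17 (−0.07, adjusted p = 0.77). Genes that are not ZNF-named but lie within the run fell as well. ZNF667-AS1, a long noncoding RNA whose annotated starts lie 529 and 779 bases from that of ZNF667 on the opposite strand, went from 8.74, 8.57 and 8.30 to 6.86, 6.83 and 6.75 (−1.72, SE 0.11, adjusted p = 5.0e-04). The KRAB zinc finger gene ZFP28 went from 8.36, 8.26 and 8.13 to 6.97, 7.32 and 7.10 (−1.12, SE 0.11, adjusted p = 0.0015). With these genes, 8 successive probesets with 1 gene symbol fell, from ZNF542P to ZNF470. Before the run, ZSCAN5A read 6.65 ± 0.12 and 6.95 ± 0.21 (0.30, adjusted p = 0.15). Beyond ZNF835, the probesets of USP29 (0.06, adjusted p = 0.63), ZIM3 (−0.10, adjusted p = 0.50) and DUXA (−0.07, adjusted p = 0.60) did not pass, at levels between 3.94 and 4.24 in either line. The imprinted gene PEG3 shares its probeset with ZIM2 and was not assigned.

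**Figure D2:**
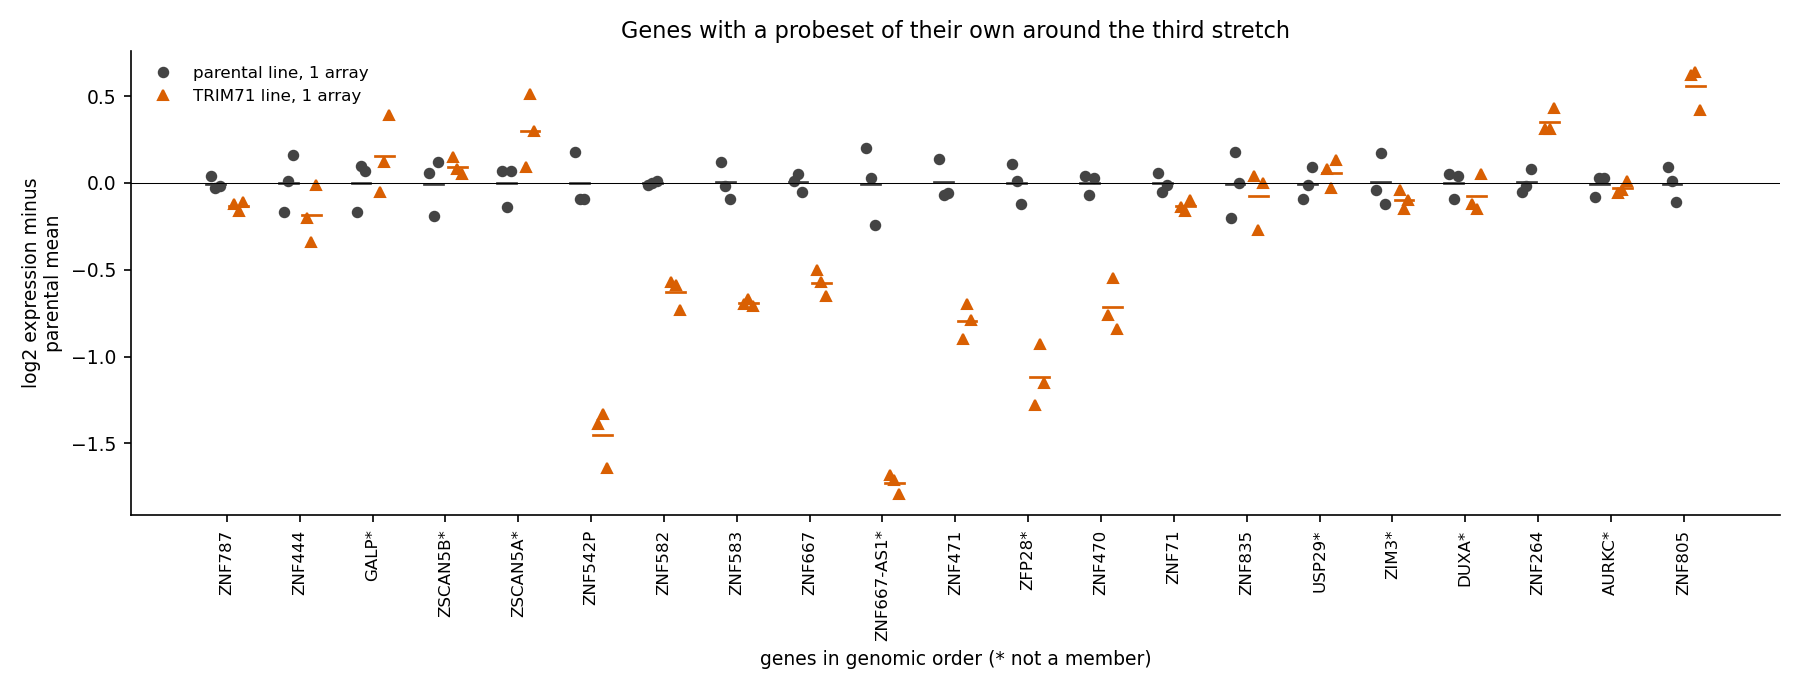
Log2 expression on each array minus the parental mean of the gene, for the 1-symbol probesets from ZNF787 to ZNF805 in genomic order; circles are parental arrays, triangles TRIM71 arrays, short lines the group means, and an asterisk marks genes outside the 56. All TRIM71 arrays of the 8 probesets from ZNF542P to ZNF470 lie below all parental arrays, and none of the genes plotted on either side passed the test except ZNF264 and ZNF805, which were higher.

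In the fourth stretch the genes that fell were scattered. ZNF772, a KRAB zinc finger gene, went from 8.82, 8.67 and 8.47 to 7.85, 7.99 and 7.69 (−0.81, SE 0.11, adjusted p = 0.0058). Of the ZNF genes on either side, ZNF749 rose and ZNF419 did not pass (−0.09, adjusted p = 0.30). VN1R1, a vomeronasal-type receptor gene between ZNF749 and ZNF772, fell (−1.02, adjusted p = 0.0015), from 6.46 ± 0.16 to 5.44 ± 0.10. ZNF606, a KRAB gene, went from 7.77, 7.74 and 7.67 to 7.13, 7.08 and 7.05 (−0.64, SE 0.05, adjusted p = 9.1e-04). Its antisense neighbour ZNF606-AS1, which starts 74 bases away on the opposite strand, did not pass (6.96 against 6.72, −0.24, adjusted p = 0.19). ZNF274 fell from 8.82 ± 0.03 to 8.32 ± 0.05 (−0.49, SE 0.05, adjusted p = 0.0019), and its groups did not overlap. It encodes a KRAB protein known to bring SETDB1 to the ends of other zinc finger genes.

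Smaller falls were seen for ZNF584 (8.78 ± 0.02 to 8.48 ± 0.14, −0.29, adjusted p = 0.043), ZNF256 (9.10 ± 0.06 to 8.85 ± 0.09, −0.26, adjusted p = 0.040) and ZNF530 (7.75 ± 0.07 to 7.51 ± 0.07, −0.24, adjusted p = 0.046). Leaving out an array ended most of these calls. Without 1 array, the adjusted p of ZNF530 was 0.055 to 0.15 and that of ZNF584 0.058 to 0.13, whichever array was left out. The ZNF256 call ended without any 1 array other than TRIM71 replicate 2 (adjusted p 0.082 to 0.12), with fold changes between −0.28 and −0.22. ZNF772, ZNF606 and ZNF274 kept their calls with each array left out.

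The 4 genes that rose all lay at the start of the fourth stretch, among its first 8 genes. ZNF805 went from 8.80, 8.72 and 8.60 in the parental line to 9.33, 9.35 and 9.13 in the TRIM71 line (0.56, SE 0.08, adjusted p = 0.0067), a 1.48-fold rise. Its neighbour ZNF264 went from 9.04, 9.07 and 9.17 to 9.40, 9.40 and 9.52 (0.35, SE 0.06, adjusted p = 0.013). AURKC, a meiotic kinase gene between them, read 7.42 and 7.39 and did not pass (−0.03, adjusted p = 0.79). ZNF749 went from 7.93, 7.75 and 7.93 to 8.32, 8.50 and 8.16 (0.46, SE 0.10, adjusted p = 0.025). ZNF304, whose KRAB protein has been linked to silencing of the INK4-ARF locus, went from 8.21, 8.20 and 8.15 to 8.42, 8.51 and 8.39 (0.25, SE 0.05, adjusted p = 0.022).

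None of these 4 genes had overlapping groups. The ZNF805 call held with each array left out. That of ZNF264 ended without parental replicate 2 (0.33, adjusted p = 0.054). The ZNF304 call ended without parental replicate 2, parental replicate 3, TRIM71 replicate 1 or TRIM71 replicate 2 (0.22 to 0.26, adjusted p 0.064 to 0.073), and the ZNF749 call without any 1 array other than TRIM71 replicate 3 (0.37 to 0.49, adjusted p 0.052 to 0.083).

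**Figure D3:**
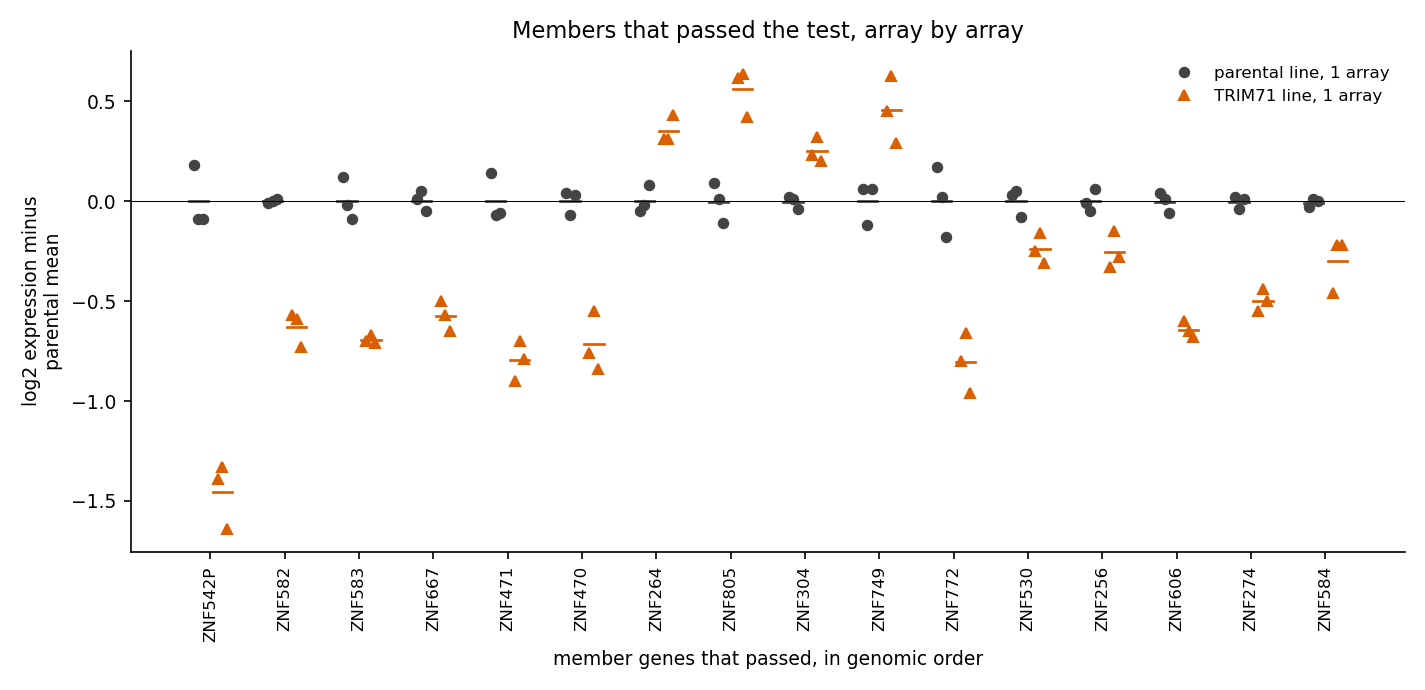
Log2 expression on each array minus the parental mean for the 16 genes that passed, in genomic order; circles are parental arrays, triangles TRIM71 arrays and short lines group means. No gene has a TRIM71 array inside the range of its parental arrays, and ZNF542P has the lowest TRIM71 arrays relative to the parental mean.

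The 40 genes that did not pass had fold changes between −0.23 and 0.31. In genomic order outside the third stretch they included, besides the 9 genes before ZNF542P, ZNF460, ZNF543, ZNF548, ZNF17, ZNF419, ZNF773, ZNF549, ZNF550, ZNF416, ZNF134, ZNF211, ZNF551, ZNF154, ZNF671, ZNF776, ZNF586, ZNF552, ZNF587, ZNF814, ZNF417, ZNF418, ZNF135, ZNF329, ZNF544, ZNF8, ZNF837, ZNF324B, ZNF324 and ZNF446. The largest difference among them was that of ZNF814, at 8.56, 8.13 and 8.36 against 9.01, 8.64 and 8.33 (0.31, 95% interval −0.14 to 0.77, adjusted p = 0.34), and its groups overlapped. ZNF580 differed by −0.23 (−0.40 to −0.06, adjusted p = 0.075), ZNF324 by −0.23 (−0.38 to −0.07, adjusted p = 0.062), ZNF552 by 0.22 (0.08 to 0.37, adjusted p = 0.055) and ZNF549 by 0.20 (−0.00 to 0.41, adjusted p = 0.18). The groups of ZNF580, ZNF324 and ZNF552 did not overlap.

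None of the 3 brightest probesets among the 56 genes passed the test. ZNF460 read 10.66, 10.82 and 10.83 in the parental line and 10.84, 10.80 and 10.75 in the TRIM71 line (0.02, 95% interval −0.13 to 0.17, adjusted p = 0.86). ZNF8, which encodes a KRAB zinc finger protein, read 9.94, 9.83 and 9.90 against 9.87, 9.87 and 9.86 (−0.02, −0.14 to 0.09, adjusted p = 0.81). ZNF134 read 9.56, 9.43 and 9.43 against 9.66, 9.72 and 9.63 (0.20, 0.06 to 0.34, adjusted p = 0.066). For all 3 the intervals exclude a change the size of the smallest in the run. ZNF134 had all TRIM71 arrays above all parental arrays. ZNF154 and ZNF671, both known for promoter methylation in tumours, were dim in both lines (5.40 ± 0.12 and 5.43 ± 0.23, and 5.97 ± 0.05 and 5.90 ± 0.12).

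Near-identical family members share sequence, and the array annotation ties some probesets to more than 1 gene. A probeset shared by ZNF587 and ZNF587B rose (10.05 ± 0.03 to 10.29 ± 0.06, 0.24, adjusted p = 0.024), while the probeset of ZNF587 alone did not pass (8.06 ± 0.08 to 8.22 ± 0.01, 0.16, adjusted p = 0.11). One shared by ZNF587B and ZNF814 did not pass (0.11, adjusted p = 0.39), nor did those of ZNF547 with TRAPPC2B (0.19, adjusted p = 0.084) and ZNF497 with a LOC gene (−0.05, adjusted p = 0.72). Which of these mRNAs a shared probeset reports is uncertain.

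The limit of 54 Mb lies in a gap between zinc finger genes. The last ZNF genes before it were ZNF813 (4.95 ± 0.09 to 4.44 ± 0.01) and ZNF331 (8.54 ± 0.03 to 7.99 ± 0.03), and the first after it ZNF628 (7.20 ± 0.06 to 7.22 ± 0.05) and ZNF579 (7.59 ± 0.11 to 7.49 ± 0.15). Of the 41 ZNF probesets that start between 50 and 54 Mb, 26 (63.4%) passed as lower, with a median fold change of −0.56. In the same way, 12 of 61 (19.7%) on the long arm up to 50 Mb were lower (median −0.08), 29 of 80 (36.2%) on the short arm (median −0.14) and 40 of 255 (15.7%) outside chromosome 19 (median −0.01). The 21.4% at the 19q end lay between the shares of the last class and of the short arm, and no test of these differences was made.

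**Figure D4:**
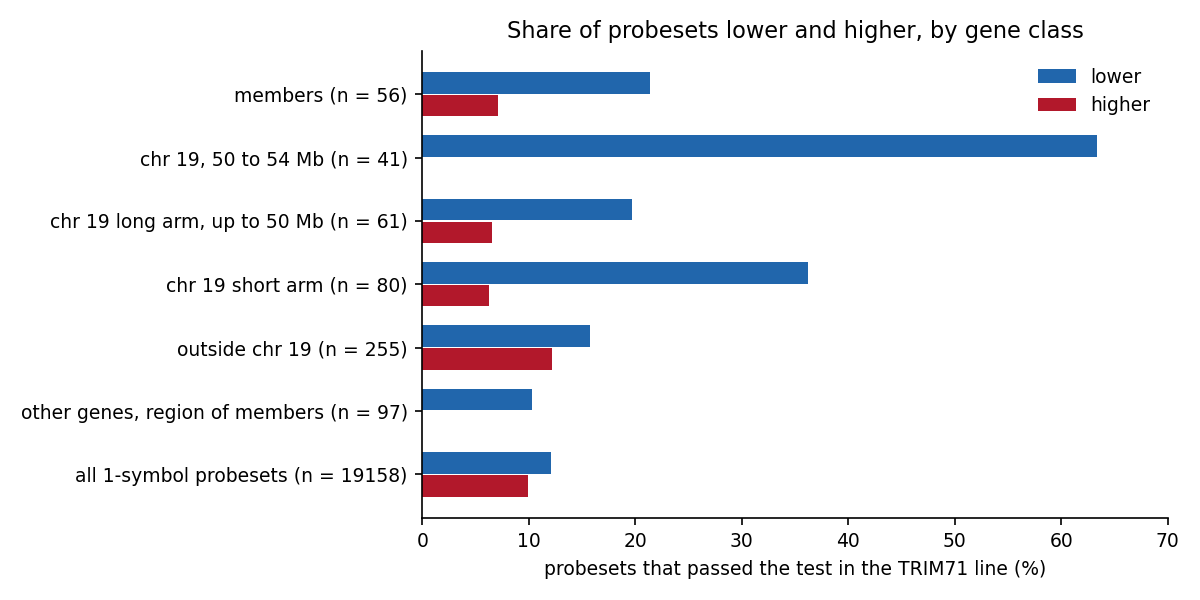
Percentage of probesets that passed the limma test as lower (blue) or higher (red) in the TRIM71 line, for the 56 genes (members), the other ZNF-named classes by chromosome position, the other genes beyond 54 Mb, and all 1-symbol probesets. The members show 21.4% lower, beside 63.4% for the ZNF genes between 50 and 54 Mb and 12.1% for all 1-symbol probesets.

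Of the 97 other 1-symbol probesets beyond 54 Mb, 10 passed as lower (10.3%), and 0 as higher by limma (1 higher at an unadjusted p under 0.05). By at least 1.5-fold, 5 fell, where 2.67% of all 1-symbol probesets did so. The 5 were named after their values were seen. They are ZNF667-AS1, ZFP28, VN1R1, ZIK1, a zinc finger gene between ZNF416 and ZNF530 (8.86 ± 0.04 to 7.64 ± 0.07, −1.22, adjusted p = 1.8e-04), and ZSCAN18, a SCAN-domain zinc finger gene between ZNF135 and ZNF329 (8.23 ± 0.07 to 7.12 ± 0.11, −1.11, adjusted p = 5.0e-04). Beside ZIK1, ZNF530 fell (−0.24, adjusted p = 0.046) and ZNF416 did not pass (−0.01). Beside ZSCAN18, ZNF135 (0.07) and ZNF329 (−0.14) did not pass. In the list of other zinc finger and PEG3-region genes, 4 of 13 measured genes fell (30.8%), beside 12.1% of all 1-symbol probesets. The 4 were ZFP28, ZIK1, ZSCAN18 and VN1R1, all among the 5 above, and the median over the 13 was −0.09.

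Of 25 listed genes of the corepressor machinery that KRAB proteins use, 4 fell (16%), 3 rose (12%) and 18 did not pass (median −0.01). These shares are near the 12.1% and 9.93% among all 1-symbol probesets. TRIM28, the corepressor itself, read 11.48 ± 0.02 in the parental line and 11.46 ± 0.01 in the TRIM71 line (−0.02, adjusted p = 0.85), and SETDB1 9.14 ± 0.04 and 8.99 ± 0.06 (−0.15, adjusted p = 0.11). The histone H3K9 methyltransferase SUV39H1 (−0.43, adjusted p = 0.0096), the remodeller CHD3 (−0.38, adjusted p = 0.0050) and the SETDB1 partner ATF7IP (−0.30, adjusted p = 0.0072) fell, as did the heterochromatin protein gene CBX5 (−0.26, adjusted p = 0.023). The DNA methyltransferase DNMT3B (0.41, adjusted p = 0.0035), the deacetylase HDAC1 (0.28, adjusted p = 0.011) and the remodeller ATRX (0.27, adjusted p = 0.011) rose, while DNMT1 read 10.98 in both lines.

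The promoter windows of these genes were rich in CG dinucleotides. RefSeq windows were matched for 50 of the 56 genes, 56 windows in all, since some genes have more than 1. The median number of CG dinucleotides per 300 bases was 23 in them and 14 in all 35114 windows, and the median ratio of observed to expected CG was 0.825 against 0.579. The 35114 windows also hold starts of noncoding RNAs such as ZNF667-AS1, while the matched genes are protein coding. No comparison with protein-coding promoters alone was made. Windows of genes that fell had a median of 26 CG dinucleotides (11 windows of 10 genes), those of genes that rose 20.5 (4 windows) and those of genes that did not pass 23 (41 windows). The ranges overlap, at 12 to 42, 18 to 23 and 3 to 40. The median ratio of observed to expected CG was 0.792, 0.763 and 0.83 in the same order. By that ratio the genes that fell lay below the genes that did not pass. ZNF542P and ZNF471, which belong to the run, had no window. Among the printed windows, ZNF667 had a ratio of 1.03, ZNF582 0.974, ZNF470 0.677, ZNF772 0.732 and ZNF805 0.732.

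On either strand, the letters CGGAAG, the core that ETS factors bind, occurred in 33 of the 56 windows (58.9%) and in 19.5% of all windows, noncoding genes included. GGGCGG, the GC box, occurred in 69.6% against 45.0%, CCAAT in 57.1% against 34.6%, TATAAA in 1.79% against 11.5%, and CACGTG, the E-box, in 7.14% against 7.26%. No motif in this search contains another. CGGAAG was found in 7 of 11 windows of genes that fell, 2 of 4 of genes that rose and 24 of 41 of genes that did not pass. A match describes the letters of these windows and is not a binding site shown by these data.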

How the data were processed

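The deposited log2 expression values, 1 column per array, were made by the authors; the submitters' processing notes name RMA and affy, and versions and array build are not given in the sources used here. RMA quantile-normalizes the arrays, so a change in total mRNA per cell cannot be seen, and cross-hybridization among similar zinc finger mRNAs is not removed. Biotin-labelled cDNA came from 100 ng of total RNA, per the labels' protocols. The 3 arrays per group limit the precision. Groups and replicate numbers come from the sample titles.

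Probesets were named from the platform annotation (19158 with 1 symbol, 1388 with several, 11775 with none); gene IDs tied 19128 of the first kind, all but 30, to RefSeq (GRCh38.p14). That table gave chromosomes and gene order. Because the array files name no build, gene coordinates are not printed except for promoter windows. The model, with group as its term, was run in R 4.3.3 on the 32321 probesets by limma 3.58.1 (lmFit, then eBayes without a trend; no filter) and was tested on simulated data. A gene passed at a Benjamini-Hochberg adjusted p under 0.05. The genes and lists were chosen with earlier results of these data known. A split of the proteins by KRAB domain had been planned and was not made, since no protein sequences were used here. Every gene that passed was named; array values were given for up to 8 per direction by size of change, the 3 brightest probesets and the largest difference that did not pass. Listed genes were represented by their brightest probeset. Alternatives were other variance moderation, normalizations, filters, thresholds, membership, a replicate block, array weights and each array left out.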

Additional observations from a re-analysis of the deposited data

How the results depend on the processing

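With each alternative the 16 genes that passed kept their direction. Of them, 8 (ZNF542P, ZNF582, ZNF583, ZNF667, ZNF471, ZNF470, ZNF772 and ZNF606) kept their call in every one run. The filter at the median kept a probeset if its mean in either group reached that median. It tested 50 of the 56 genes and left ZNF667 and ZNF471, among others, untested. ZNF582 passed this filter only through its parental mean (7.27, against 6.64 in the TRIM71 line), so that run adds nothing for its call. The number that fell was 12, and 8 to 17 under the other settings (9 to 10 with each array left out); without the third stretch, an alternative chosen after seeing the data, it was 6. The number that rose was 4. With the filter at the median of all probesets it was 7 of the 50 genes tested, and 17 fell. Of all 16552 probesets tested with that filter, 3276 passed as higher and 3219 as lower. The number of the 56 genes that rose was 1 at an adjusted p under 0.01, 0 in the treat test against a fold of 1.2, and 1 to 4 with each array left out. The treat test and the stricter threshold ask for more by construction, and otherwise the cause was not tested. The other 8 genes, among them ZNF805 (adjusted p = 0.12) and ZNF274 (adjusted p = 0.056), lost their call in the treat test. With the replicate block, 2 rose and 9 fell. The replicate numbers share nothing in the labels beyond the number, and the deviations of same-numbered arrays correlated at 0.068, −0.188 and 0.108. With the block ZNF304, ZNF749, ZNF530, ZNF256 and ZNF584 did not pass. Median centring ended the calls of ZNF304, ZNF530, ZNF256 and ZNF584 (adjusted p 0.053 to 0.085), and quantile normalization that of ZNF530 (adjusted p = 0.054). ZNF580, ZNF324 and ZNF552 passed under several alternatives, among them the filter at the median (adjusted p 0.020 to 0.030). Over all probesets, the replicate block gave 1512 higher and 1615 lower calls, beside 2571 and 2677. Calls beyond a fold of 1.2 were 285 higher and 536 lower, and at an adjusted p under 0.01 they were 973 and 1273. With 1 array left out, higher calls numbered 1320 to 2077 and lower calls 1566 to 2026. The median fold change of the 56 genes stayed between −0.11 and −0.05. Dim probesets such as ZNF471 limit what can be said of the size of a change.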
